A study of Mus musculus with 39 samples.

Results

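Immediate early genes are genes whose mRNA a cell makes within minutes of a stimulus, and in cells released from tissue by enzymes their mRNA is also known to rise during the release itself. Fos, Fosb, Jun, Junb, Egr1, Atf3, Ier2, Ier3, Socs3 and Nr4a1 were taken by symbol, with no threshold on their values. All 10 were found among the 24946 genes that the deposited tables share, and all 10 passed the filter on low values in each comparison. The study profiled mRNA from brain endothelial cells of C57BL/6 mouse pups, digested from whole brain and captured on beads carrying an antibody to PECAM, in models of hereditary haemorrhagic telangiectasia. Wild types were Smad4f/f, Alk1f/f or Engf/f, and mutants carried in addition Cdh5-CreERT2, a Cre recombinase that tamoxifen activates and that the endothelial promoter of Cdh5 drives. Smad4 and Eng pups, of both genotypes, were given 300 µg tamoxifen on postnatal days 1 to 3 and were sampled on day 7. Alk1 pups were given 100 µg on day 4 and were sampled on day 6. In a further Smad4 experiment, sampled on day 7 after the same tamoxifen, pups received 30 µg of IgG or of LC10, an inhibitor of angiopoietin-2, on days 2 and 4. There were 5 libraries in each of the 6 untreated groups, and 3 each of IgG wild types, IgG mutants and LC10 mutants, 39 in all. No wild type carried Cre, so the loss of the gene and the presence of Cre cannot be told apart.

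As background, signals through MAP kinases, calcium and cyclic AMP reach factors already bound at these genes, which is why no new protein is needed for their first mRNA. Fos and Fosb proteins pair with Jun or Junb to form AP-1, and Egr1, Nr4a1 and Atf3 are DNA-binding factors of other families that start or limit a further wave of genes. Socs3 shuts down signalling from cytokine receptors of the interleukin-6 family through JAK and STAT3, Ier2 is a nuclear protein, and Ier3 modulates survival and ERK signalling. In endothelial cells, shear stress, growth factors and inflammatory cytokines are known inducers of many of them. ALK1 and endoglin are receptors of the BMP branch of TGF-beta signalling at the endothelial surface, and SMAD4 carries that signal into the nucleus.

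The stretches just upstream of Fos, Jun and Nr4a1 are shown as examples from the windows that no annotated exon overlapped. They come from RefSeq with the build GRCm38.p6 and cover the 250 bases before the start, on the gene's own strand: Fos at chr12:85473640-85473889 (+), Jun at chr4:95052223-95052472 (-) and Nr4a1 at chr15:101266596-101266845 (+). Capitals mark TGACG, the core of the cyclic AMP response element, read on either strand (CGTCA on the other), and TATAAA, the TATA box, on the gene's strand.
Fos: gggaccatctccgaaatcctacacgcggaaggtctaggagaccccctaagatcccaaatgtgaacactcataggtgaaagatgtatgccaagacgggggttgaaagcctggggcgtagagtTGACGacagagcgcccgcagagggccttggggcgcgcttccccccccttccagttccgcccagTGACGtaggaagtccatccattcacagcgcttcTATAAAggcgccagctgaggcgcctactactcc
Jun: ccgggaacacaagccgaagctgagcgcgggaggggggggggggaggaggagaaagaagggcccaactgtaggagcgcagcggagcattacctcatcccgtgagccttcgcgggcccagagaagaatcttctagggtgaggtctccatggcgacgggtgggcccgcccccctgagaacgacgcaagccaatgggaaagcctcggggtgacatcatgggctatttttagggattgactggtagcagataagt
Nr4a1: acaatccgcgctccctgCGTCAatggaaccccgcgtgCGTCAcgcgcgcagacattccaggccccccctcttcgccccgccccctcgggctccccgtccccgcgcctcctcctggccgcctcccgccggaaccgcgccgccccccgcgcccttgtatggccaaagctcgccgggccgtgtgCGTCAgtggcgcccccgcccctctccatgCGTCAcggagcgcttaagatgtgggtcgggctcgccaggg

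A promoter entry matched 8 of the 10 genes. The core TGACG was found in 5 of these 8 (Atf3, Fos, Fosb, Junb and Nr4a1), and in 17.75% of all 32817 promoters of the same length on either strand. In Fos it lay at -129 to -125 and at -66 to -62 relative to the start, with the TATA box at -33 to -28. Nr4a1 had it at 4 places, of which the nearest to the start was -40 to -36. Neither the whole element TGACGTCA, which contains the core, nor the AP-1 sequence TGANTCA nor a CArG box, all read on both strands, was found in any of the 8. They occurred in 1.55%, 6.75% and 1.47% of all promoters. TATAAA was found in Fos alone of the 8 and in 7.6% of all promoters, and the STAT motif TTCNNNGAA, on both strands, in Socs3 alone and in 7.01%. The GC content of the 8 windows was 54.4 to 74.4%, against a median of 52.4% over all promoters. A match of letters is a description of the window only.

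The deposited values were a normalized signal per gene, with a sum per library of 25.44M to 42.74M, about 11.09M to 30.85M fragments as inferred from the smallest steps, and 16105 to 17683 genes above 0. Summed endothelial markers were at 12010 to 14830 ppm in all groups (ppm, parts in 1000000 of a library's summed values), and at most 1 marker of any other cell type's list was at 0 throughout a group. Smad4 was at 5704 in wild types and 1820 in mutants of its untreated cohort, and at 5848 and 2315 under IgG. Eng was at 63420.4 in wild types and 10152 in mutants. Acvrl1, the gene of ALK1, was at 15319 and 14152 (log2 fold change -0.12 ± 0.08 SE, limma adjusted p = 0.279), so its whole-gene value did not check the Alk1 genotype. The labels number the samples but name no animals, so p-values measure the spread between these libraries, which may in part be technical. In bulk samples, fewer cells of a type and less RNA per cell cannot be told apart.

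All 10 genes were well above the middle of the transcriptome in every group. Over the 9 groups, their mean shares of the library lay between the 72.6th and the 99.3rd percentile of all genes, not corrected for length. Per kilobase of exon, Fos led the Smad4 wild types with a median of 195 ppm (188 to 293 over 5 libraries). Junb had a median of 190.0 (159 to 229), Jun of 184 (139 to 268) and Ier2 of 136 (104 to 160), and each of these overlapped its neighbour in the order. Egr1 came next with 53.8 (45.7 to 102), below every Ier2 value. The medians per kilobase of Ier3, Nr4a1, Socs3, Fosb and Atf3 were 50.7, 38.8, 30.4, 28.5 and 22.3, with ranges that overlapped between neighbours. Fos, Jun, Junb and Ier2 thus formed the upper tier, and the same 4 held the first 4 ranks in the Alk1 and Eng wild types.

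The wild types of the Alk1 cohort stood low for these genes. As a share of the library, Fos was at 160 to 244 ppm in Alk1 wild types, 441 to 688 in Smad4 wild types, 294 to 469 in Eng wild types and 346 to 555 in IgG wild types. Of the 10 genes, 8 were higher without overlap in Smad4 than in Alk1 wild types, Egr1 and Ier2 being the exceptions, with ratios of the means of 1.43 to 2.71 over the 10. The Alk1 wild types were lower without overlap for 7.38% of all genes in that pair of groups. Against Eng wild types they were lower without overlap for 6 of 10 genes, where 5.24% of all genes were. Against IgG wild types, the Alk1 wild types were lower without overlap for 9 of 10 genes, all but Fosb, where 14.3% of all genes were. Smad4 and IgG wild types, which had the same genotype and age, overlapped for all 10. Eng wild types, of that age too, were lower without overlap than Smad4 wild types for 3 of 10 (Jun, Junb and Ier3). They were lower than IgG wild types for 2 of 10. The share of all genes was not counted for these pairs. The cohorts differ in age, in tamoxifen and in their separately normalized tables, which cannot be told apart here.

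**Figure D1:**
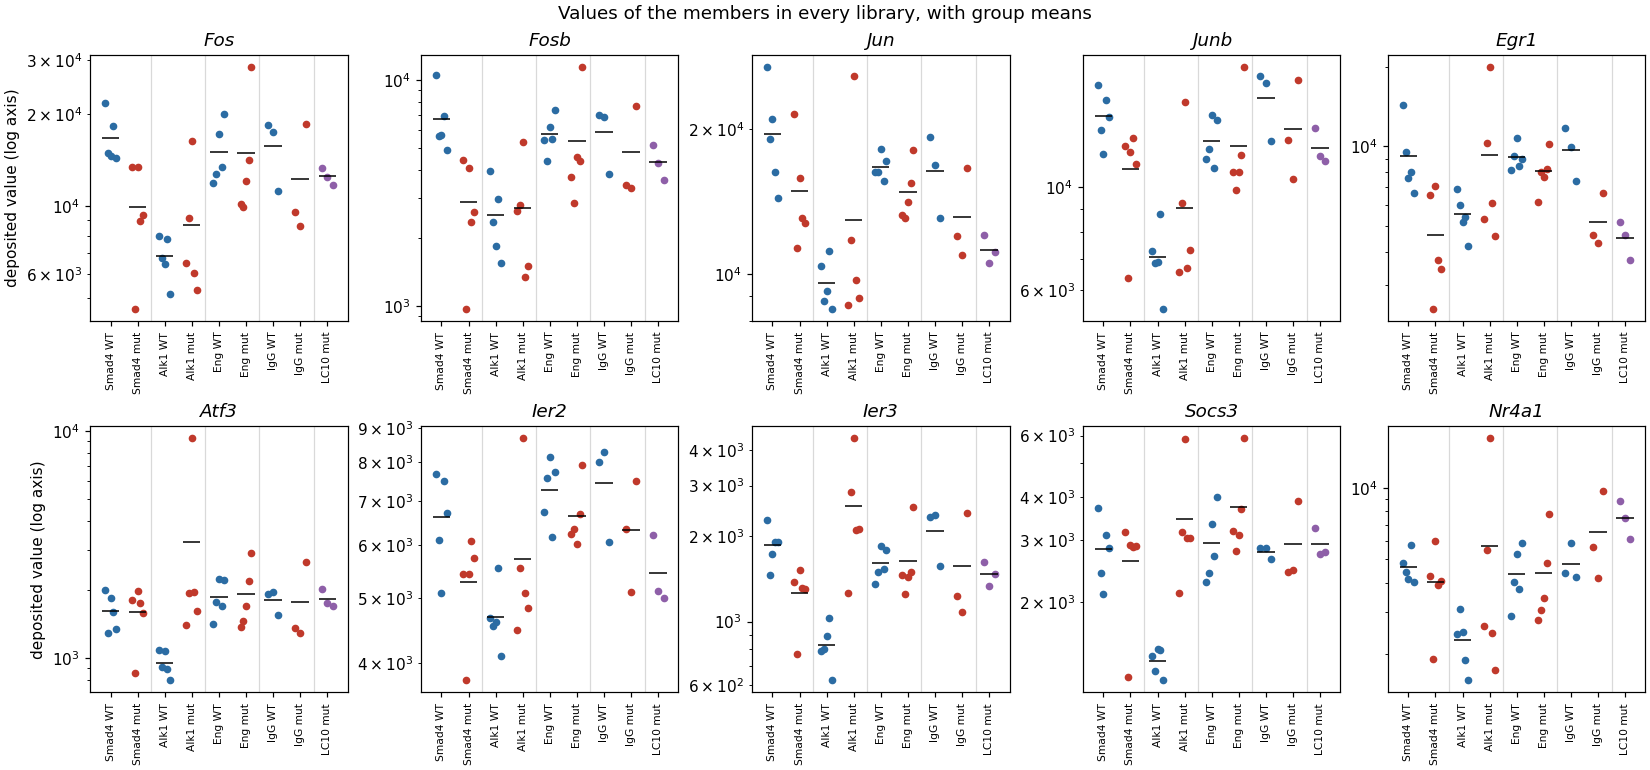
Deposited value of each gene (log axis, a separate scale in each panel) in every library, by group. Points are libraries (blue wild type, red mutant, purple LC10 mutant), bars are group means, tables were normalized separately, and the Alk1 mutant panel for Atf3 shows 1 library at 9254 above 4 at 1393 to 1947.

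The most general pattern was that the 10 genes went up or down together from library to library within a group. Each value was set as log2(value + 2) minus its group mean, and these deviations were averaged over the 10 genes. Library numbers in the untreated cohorts are the order in the table. Smad4 mutant library 2 had the lowest value of its group for 10 of 10 genes, with a mean deviation of -0.83. Alk1 mutant library 3 had the highest for 10 of 10, with a mean deviation of 1.19. Eng mutant library 5 had the highest for 10 of 10, with a mean deviation of 0.68, and IgG mutant library 3 likewise with 0.54. Every one of these 4 libraries was a mutant, but Alk1 wild-type library 5 and IgG wild-type library 3 were also the lowest of their groups for 10 of 10, at -0.34 and -0.31. LC10 mutant library 1 was highest for 10 of 10 with only 0.17 above its mean. The share of all genes with their highest or lowest value in these same libraries was not counted.

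The genes differed in how far they swung. In Smad4 mutant library 2, Fosb was 1.39 below its group mean on the log2 scale and Jun, the least moved, 0.36 below. In Alk1 mutant library 3, Nr4a1 was 2.02 above its group mean and Ier2 0.64 above. In Eng mutant library 5 the largest deviation was that of Fosb, 1.27, and the smallest that of Ier2, 0.26. The SD of log2 values within a group had a median over the 10 genes of 0.23 to 0.27 in the 4 groups of wild types and 0.41 to 0.66 in the mutants of the untreated and IgG experiments, and of 0.14 in LC10 mutants. The median SD over the 9968 to 11141 well-expressed genes of a group was 0.07 to 0.17 in the same 9 groups. Ranked among those genes, the SD of Fosb had a median percentile over the groups of 98.1, that of Nr4a1 of 97.6, that of Fos of 96.5 and that of Ier2, the lowest, of 87.0.

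**Figure D2:**
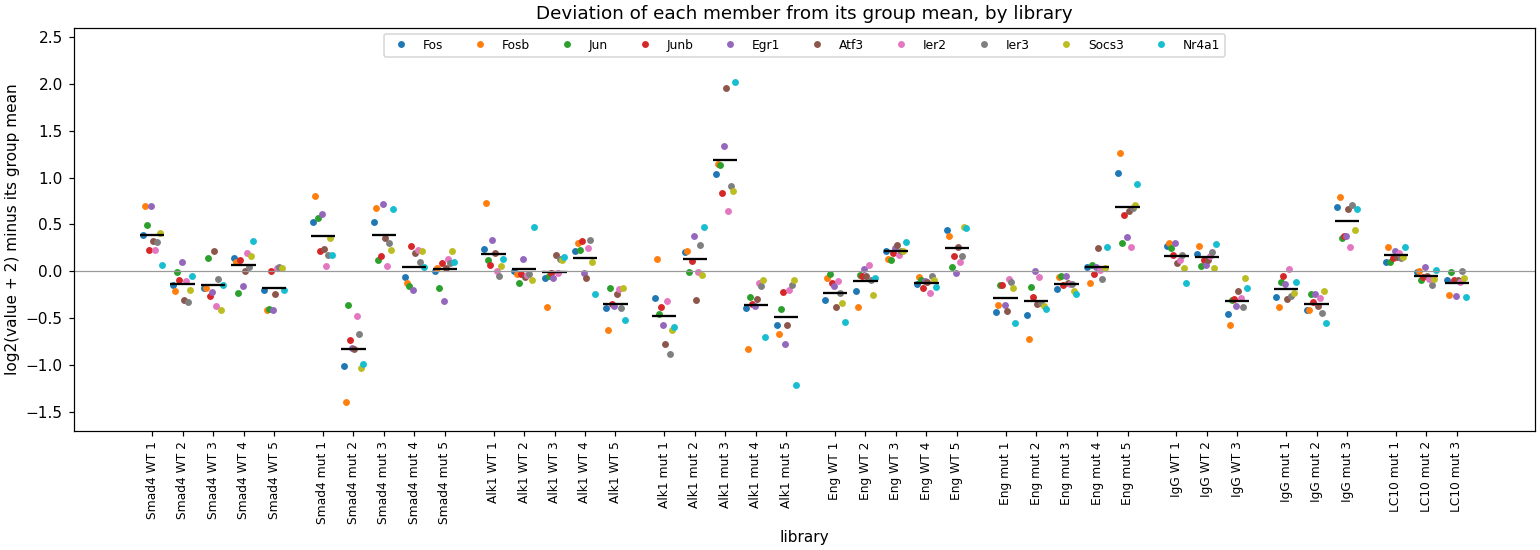
Deviation of log2(value + 2) from its group mean for the 10 genes in each of 39 libraries (colours are genes, black bars the mean over the 10). In Smad4 mutant 2 all 10 points lie below 0, and in Alk1 mutant 3, Eng mutant 5 and IgG mutant 3 all 10 lie above 0.

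Depth and cell type markers of these libraries were compared with the other libraries of their groups. Smad4 mutant library 2 had 15.37M inferred fragments, inside the range of the other 4 mutants (11.09M to 27.58M), and 8 of its 9 summed marker lists were inside their range, the exception being pericyte markers at 1501 ppm against 456 to 1415. Alk1 mutant library 3 had 11.67M inferred fragments against 15.56M to 22.8M in the others, and was the lowest of its group for endothelial (12012 against 12414 to 13108), microglial, neuronal and astrocyte markers. Eng mutant library 5 was inside the range of the others in depth, lowest for endothelial and oligodendrocyte markers and highest for pericyte, erythroid and neutrophil markers. Eng mutant 5 and Eng wild type 5 are the only libraries of that cohort with the code L216 in place of L210 in their column names, and the wild type had the highest mean deviation of its group, 0.25. What the code stands for is not given. IgG mutant library 3 had 19.11M inferred fragments against 13.81M and 17.63M in the other 2 mutants. Of its 9 marker sums, 2 lay inside the range of those 2 libraries, which is a narrow one. Microglial markers were highest (601 ppm against 379 to 443), and pericyte (1137 against 1494 to 2195) and erythroid markers lowest. Other sums were barely outside, such as oligodendrocyte markers at 120.6 against 120.9 to 130.8. The summed values of these 4 libraries, in the order above, were 33.62M, 37.63M, 41.97M and 33.61M. The others of their groups had 32.63M to 36.03M, 32.82M to 35.29M, 40.28M to 41.41M, and 33.02M and 33.2M. The part of depth, summed values, cell composition or code in the swings was not tested.

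Across the 30 untreated libraries, the deviation of each gene followed the mean deviation of the other 9, with a Pearson r from 0.844 for Jun to 0.960 for Fos. These r share the libraries and describe these data only. Among 10789 genes with a mean value of at least 200, the 6 genes outside the 10 whose deviations were most like the mean of the 10 were Nfkbiz (r = 0.946), Zfp36 (0.944), Dusp1 (0.943), Ppp1r15a (0.939), Bhlhe40 (0.894) and Nr4a2 (0.892). Nfkbiz encodes a nuclear regulator of NF-kappaB, Zfp36 a protein that speeds decay of AU-rich mRNA, and Dusp1 a phosphatase of MAP kinases. Ppp1r15a directs dephosphorylation of eIF2-alpha, and Nr4a2 is the sister gene of Nr4a1. Spearman's rho for the 6 was 0.847 to 0.947. Without the 2 libraries whose mean deviation from their group mean was largest in size, the r of these 6 genes was 0.808 to 0.918.

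Loss of Smad4 went with lower Fos, Fosb, Egr1 and Ier3. Of the 10 genes, 4 were called lower and 0 higher at a Benjamini-Hochberg adjusted p under 0.05 over 14012 genes, where 15.8% of all genes were called lower and 17.2% higher. All 10 fold changes were negative, with a median log2 of -0.41 against -0.01 over all genes tested. Fos, the AP-1 subunit, was at 21691, 14891, 14575, 18266 and 14344 in the wild types and at 13419, 4603, 13412, 8913 and 9337 in the mutants. Every mutant was below every wild type, and library 2 was the lowest. Its log2 fold change was -0.83 ± 0.26 (SE, adjusted p = 0.0310). Fosb, its relative, was at 10527, 5627, 5728, 6948 and 4886 in wild types and 4445, 970.2, 4084, 2347 and 2616 in mutants. The Fosb groups did not overlap either, and Fosb had the largest change of the 10, -1.35 ± 0.37 (adjusted p = 0.0180). In this cohort the groups of 22.8% of all genes did not overlap, with the mutants lower for 10.2% and higher for 12.6%.

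Egr1, a zinc-finger factor, was at 14362, 9506, 7596, 7974 and 6657 in Smad4 wild types and at 6562, 2431, 7067, 3725 and 3443 in mutants. Only the highest mutant exceeded the lowest wild type. The change was -1.05 ± 0.30 (adjusted p = 0.0206). Ier3 was at 1461 to 2276 (median 1896.7) in wild types and at 771 to 1515 (median 1311) in mutants, with overlap by 1 mutant, and changed by -0.58 ± 0.17 (adjusted p = 0.0260). The Jun partners gave smaller values that did not pass: Junb -0.42 ± 0.18 (adjusted p = 0.0885) and Jun -0.40 ± 0.19 (0.133). Ier2 was at -0.33 ± 0.14 (0.0971), Nr4a1 at -0.28 ± 0.24, Socs3 at -0.17 ± 0.25 and Atf3 at -0.05 ± 0.21. With each library divided by its total, or with quantile normalization, 6 of the 10 were called lower, Junb and Ier2 being added. Of all genes, 32.4% and 30% were called in either direction in those fits.

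The 4 calls were also made without the low mutant library, where 28.1% of all genes were called in either direction. Without Smad4 mutant library 2, Fos was at -0.58 ± 0.17 (adjusted p = 0.0275), Fosb at -0.998 ± 0.25 (0.0156), Egr1 at -0.85 ± 0.27 (0.0406) and Ier3 at -0.41 ± 0.11 (0.0227), while Atf3 and Socs3 turned to 0.16 and 0.09. Without wild-type library 1, the highest of its group for 9 of 10 genes, 2 calls were left, Fosb (0.0457) and Egr1 (0.0488). In that fit 24.4% of all genes were called in either direction. Of 20 alternatives, Fos missed the threshold in 6, among them leaving out wild type 1, 2 or 4 or mutant 4 or 5, Ier3 in 3, and Fosb and Egr1 in 1 each. Some columns carry the library code L146. Among the 3 wild types and 3 mutants without a code, the changes were about as large (Fos -0.84, Fosb -1.42, Egr1 -1.07, Ier3 -0.61) and 0 of the 10 passed in limma, with 17.4% of all genes called in either direction. Among the 2 and 2 with the code, 7 passed, with 43% of all genes called. Markers of other cells were lower in the same mutants: 8 of 10 neuronal, 5 of 10 pericyte, 4 of 5 smooth muscle, 3 of 7 oligodendrocyte, 3 of 4 erythroid and 1 of 8 astrocyte markers were called lower, and 0 of 10 microglial ones. Pericyte sums were 1741 to 2464 ppm in wild types and 456 to 1501 in mutants, and neuronal sums 122 to 227 and 67.1 to 166. Their part in the lower values was not tested.

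Under IgG, a separate set of Smad4 pups, Egr1 alone of the 10 was called, and it was lower again. The background of calls was 10.8% lower and 13.2% higher of 14052 genes. Egr1 was at 11754, 9982 and 7380.0 in IgG wild types and at 4635, 4310.0 and 6644 in IgG mutants. The groups did not overlap. With 3 against 3 libraries that held for 40.9% of all genes, with the mutants lower for 18.7% and higher for 22.2%. The change was -0.90 ± 0.20 (SE, limma adjusted p = 0.0118), beside -1.05 in the untreated cohort. The LC10 libraries, whose spread was smaller, entered this fit for the estimate of spread, and with the IgG libraries alone the adjusted p was 0.0255. Egr1 remained past the threshold in all 14 alternatives run, with adjusted p from 0.00724 to 0.0498.

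Fos was at 18464, 17517 and 11211 in IgG wild types and at 9542, 8613 and 18543 in IgG mutants, -0.42 ± 0.27 (adjusted p = 0.278). Mutant library 3 exceeded every wild type, and the others lay below all of them. Fosb was at -0.36 ± 0.33, Ier3 at -0.48 ± 0.27, Jun at -0.32 ± 0.16, Ier2 at -0.24 ± 0.15, Junb at -0.23 ± 0.17 and Atf3 at -0.10 ± 0.23. Socs3 (0.04 ± 0.16) and Nr4a1 (0.36 ± 0.27) had positive values, and the median of the 10 was -0.28 against 0.00 over all genes. Without IgG mutant library 3, 5 of the 10 were called lower: Egr1 (-1.09), Ier3 (-0.83), Fos (-0.76), Jun (-0.50) and Atf3 (-0.44), with 15.2% of all genes called in either direction. In this experiment 9 of 10 microglial and 7 of 10 pericyte markers were called lower in mutants, with microglial sums of 643 to 1256 ppm in wild types and 379 to 601 in mutants. Their part in the result was not tested.

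In the Alk1 cohort 3 of the genes were higher, among them Ier3, which was lower in Smad4 mutants. Ier3, Socs3 and Atf3 rose and 0 of the 10 fell, where 17.5% of 13635 genes were called higher and 15.7% lower. The median log2 fold change of the 10 was 0.42, against -0.01 over all genes. Ier3 was at 787.7, 800.3, 892, 1027 and 622 in wild types and at 1264, 2846, 4391, 2096 and 2114 in mutants. Every mutant exceeded every wild type, with library 3 the highest. The change was 1.52 ± 0.26 (SE, limma adjusted p = 0.000960). Socs3, the inhibitor of cytokine signalling, was at 1399, 1267, 1463, 1451 and 1189 in wild types and 2112, 3161, 5870.4, 3039 and 3044 in mutants. Its groups were also apart, by 1.27 ± 0.20 (adjusted p = 0.000608). Atf3, a factor of the stress response, was at 1084, 909, 1069, 897 and 796 in wild types and at 1393, 1925, 9254, 1947 and 1608 in mutants. No mutant was as low as any wild type, and the change was 1.34 ± 0.41 (adjusted p = 0.0259). In this cohort the groups of 24.5% of all genes did not overlap, with the mutants higher for 13.3% and lower for 11.2%.

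Per kilobase of exon, Ier3 was at 17.1 to 27.9 ppm in Alk1 wild types, 34.1 to 103 in Alk1 mutants and 39.8 to 63.9 in Smad4 wild types. The range of the Smad4 wild types lay within that of the Alk1 mutants. The 3 calls were also made without Alk1 mutant library 3, at 1.29 ± 0.21 for Ier3 (adjusted p = 0.000803), 1.05 ± 0.12 for Socs3 (7.68e-05) and 0.85 ± 0.12 for Atf3 (0.000385). In that fit 30.3% of all genes were called in either direction. Ier3 and Socs3 passed in all 20 alternatives run. Atf3 missed the threshold in 4 of 20, with an adjusted p of up to 0.120, which was its value among the libraries without the code L219.

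None of the other 7 genes passed, and their values were lower without library 3. Nr4a1 was at 2432, 3092, 2471, 1885 and 1552 in Alk1 wild types and at 2633, 5498, 16138, 2446 and 1715 in mutants. Its change of 0.83 ± 0.49 did not pass (adjusted p = 0.214) and was 0.33 ± 0.29 without library 3. Egr1 was at 0.53 ± 0.33 (0.242) and at 0.20 ± 0.21 without it. Jun, Junb, Ier2 and Fos were at 0.30, 0.29, 0.25 and 0.23, and at 0.02, 0.08, 0.09 and -0.03 without library 3. Fosb was at -0.01 ± 0.35, and at -0.29 ± 0.29 without it, and the median of the 10 without that library was 0.15. In the same mutants 4 of 4 erythroid and 4 of 5 smooth muscle markers were called lower. Of 3 neutrophil markers tested, from a list of 5, 2 were called higher, S100a8 and S100a9, at 38 and 66 in mutants and 4.4 and 13.0 in wild types. The other, Csf3r, had a negative value and was not called (-0.59 ± 0.23, limma adjusted p = 0.0624). The wild-type means of S100a8 and S100a9 lay below the minimum of the filter on low values, so both entered the test largely through mutant libraries. Neutrophil sums overlapped, at 4.2 to 7.3 ppm in wild types and 4.3 to 7.9 in mutants. Erythroid sums were 1244 to 2022 ppm in wild types and 454 to 696 in mutants, and the part of these cells was not tested.

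In the Eng cohort none of the 10 genes was called by limma, where 12.4% of 14350 genes were called higher and 9.08% lower, and 1 of the 10, Jun, had an unadjusted p under 0.05. The median log2 fold change was -0.08 against -0.01 over all genes, and groups overlapped for all 10, where those of 16.5% of all genes did not (10.2% with the mutants higher, 6.37% lower). Fos was at 11920, 12745, 17180, 13405 and 20050 in wild types and 10136, 9919, 12044, 14201 and 28529 in mutants. The highest library was a mutant and so were the lowest ones, and the change was -0.10 ± 0.26 (SE, adjusted p = 0.827). Socs3 had the only value above 0.1 on the log2 scale, 0.32 ± 0.20 (0.304), with values of 2283 to 3994 in wild types and 2791 to 5886 in mutants. Jun was at -0.19 ± 0.08 (0.131), Egr1 at -0.19 ± 0.11, Fosb at -0.26 ± 0.30 and Ier2 at -0.13 ± 0.09. Without Eng mutant library 5, Fosb (-0.58 ± 0.16, adjusted p = 0.0226) and Jun (-0.26 ± 0.06, 0.00804) were called lower, with a median of -0.24 over the 10. In that fit 21.8% of all genes were called in either direction, so 2 of 10 stands near that background. Fosb and Jun were also the 2 genes called lower among the libraries with code L210, at -0.48 and -0.25, where 21.8% of all genes were called. With the code as a term in the model, Socs3 passed instead, at 0.32 ± 0.11 (0.0492), with 24.5% of all genes called. In the markers, 3 of 5 erythroid and 4 of 10 endothelial genes were called lower in Eng mutants, and 0 of the pericyte, neuronal and microglial ones, and their part was not tested.

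**Figure D3:**
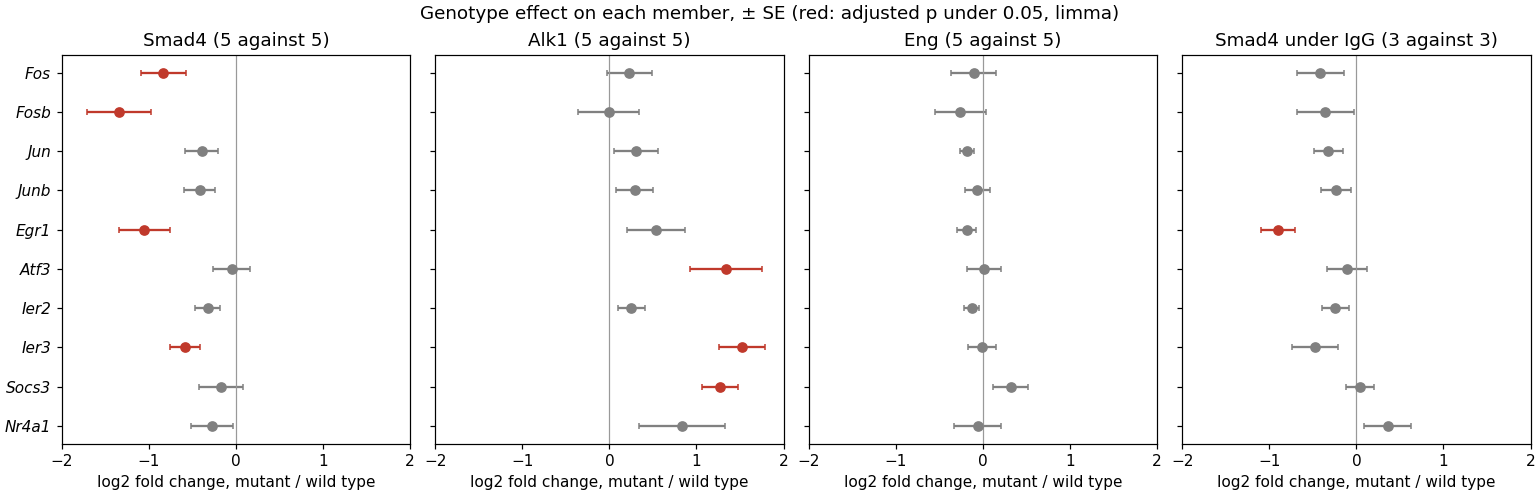
Log2 fold change of each gene, mutant over wild type, with its SE, in the 4 comparisons (points are limma estimates, red where the adjusted p is under 0.05). Fos, Fosb, Egr1 and Ier3 are red below 0 for Smad4, Atf3, Ier3 and Socs3 are red above 0 for Alk1, none is red for Eng, and Egr1 is red below 0 under IgG.

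The genotype effects themselves were then compared between the untreated cohorts in a joint fit of 30 libraries and 14701 genes. The Alk1 cohort also differed from the other cohorts in tamoxifen dose and days and in age at sampling. In its differences the deleted gene cannot be told apart from these. Between Smad4 and Alk1, 4 of the 10 genes differed, all with the lower effect in Smad4, where 15.9% of all genes differed, 8.15% in that direction and 7.77% in the other. Ier3 differed by -2.10 ± 0.32 on the log2 scale (limma adjusted p = 3.56e-05), Egr1 by -1.58 ± 0.42 (0.00912), Socs3 by -1.44 ± 0.34 (0.00422) and Atf3 by -1.38 ± 0.46 (0.0392). Fosb (-1.34 ± 0.54, 0.0901) and Fos (-1.06 ± 0.41, 0.0767) did not pass. Between Alk1 and Eng, 1 of 10 differed, Ier3, by 1.53 ± 0.32 (0.00172), where 14.5% of all genes differed, 7.8% with the higher effect in Alk1 and 6.72% with the lower. Atf3 (1.33 ± 0.46, 0.0520) and Socs3 (0.95 ± 0.34, 0.0636) did not pass there. Between Smad4 and Eng, limma called 0 of the 10, against 8.04% of all genes (4.16% higher, 3.88% lower), and 1 of them, Egr1 (-0.86 ± 0.42, adjusted p = 0.215), had an unadjusted p under 0.05. The Egr1 and Fos effects of Smad4 are therefore not shown to differ from those of Eng.

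Since the 10 genes shared each library's swing, every gene was also set against the mean of the other 9 in the same library. This measure was chosen after the values had been seen and carries no test. For genes outside the 10, the same was done against the mean of the 10. Fos and Fosb were lower relative to the others in all 5 Smad4 mutants than in any Smad4 wild type: Fos was 1.58 to 1.70 above the other 9 in wild types and 1.10 to 1.47 above in mutants. On this scale the mutants were lower without overlap for 0.414% of all genes and higher for 20%, since genes outside the 10 are set against genes that were lower in these mutants. Ier3 was at -2.36 to -1.89 log2 units relative to the other 9 in Alk1 wild types and at -1.60 to -0.76 in Alk1 mutants, and Atf3 and Socs3 were likewise closer to the others without overlap, where 0.748% of all genes were higher and 23.9% lower without overlap. Fos and Jun were lower relative to the others without overlap, but the 3 called genes are in the mean and alone move an unchanged gene by -0.46. In Eng mutants Socs3 was at -0.76 to -0.56 relative to the other 9, against -1.28 to -0.86 in wild types, and it was the only gene of the 10 whose groups did not overlap there, where 0.78% of all genes were higher and 0.321% lower without overlap. These shares move with the swing of the 10 genes in each library, which all other genes are set against.

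On this scale the IgG experiment separated a pair of genes in opposite directions. Egr1 was at 0.87, 0.61 and 0.64 in IgG wild types, at 0.05, 0.12 and -0.17 in IgG mutants, and at -0.14, -0.08 and -0.34 in LC10 mutants. Nr4a1 was at -0.72, -0.25 and -0.25 in IgG wild types, at 0.36, 0.07 and 0.44 in IgG mutants, and at 0.71, 0.69 and 0.46 in LC10 mutants. Mutants and wild types under IgG did not overlap in either gene, where 3.12% of all genes were lower and 5.27% higher without overlap on this scale. In the untreated Smad4 cohort, Egr1 was at 0.35 to 0.96 in wild types and -0.31 to 0.43 in mutants, and Nr4a1 at -0.79 to -0.15 and -0.36 to 0.17, with overlap in both.

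**Figure D4:**
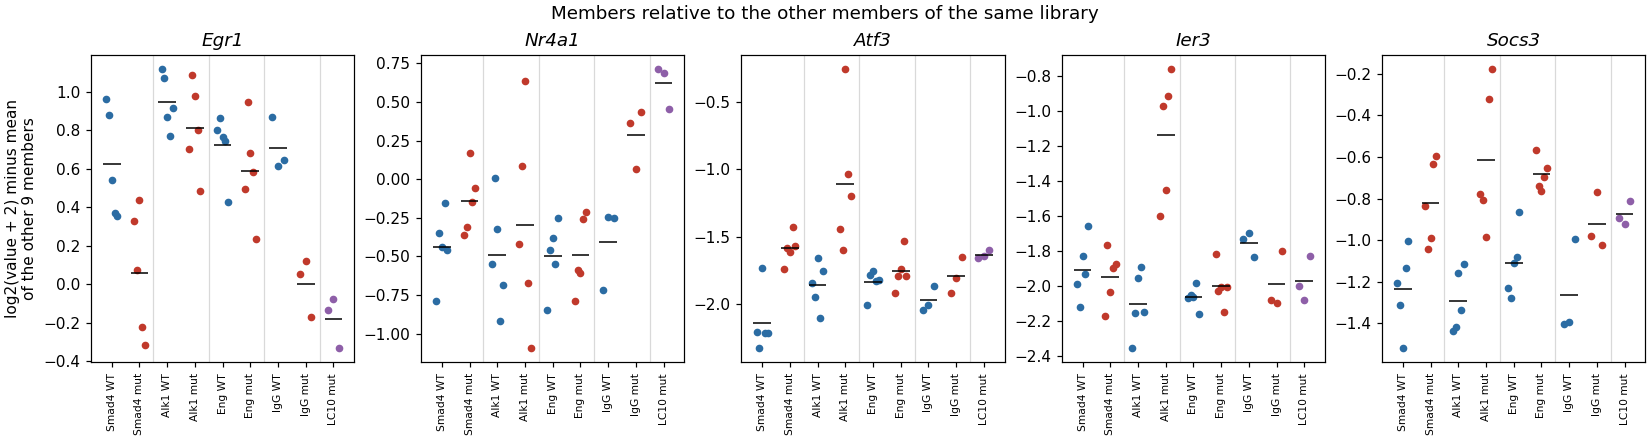
Log2(value + 2) of 5 genes minus the mean of the other 9 genes in the same library, by group (points are libraries, bars group means). Egr1 lies lower and Nr4a1 higher in IgG and LC10 mutants than in IgG wild types, and Atf3, Ier3 and Socs3 lie higher in Alk1 mutants than in Alk1 wild types.

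LC10 mutants have a table of their own, so treatment and table cannot be told apart and LC10 was tested against no other group. Brought to one scale with the IgG libraries by the median of ratios, Nr4a1 was at 11440.3, 9709 and 7877 in LC10 mutants, at 5623, 4165 and 9676 in IgG mutants and at 4387, 5846 and 4201 in IgG wild types. LC10 mutants were above every IgG wild type, at 2.01 times their mean, and overlapped the IgG mutants. Egr1 was at 6730.0, 6016 and 4809 in LC10 mutants, at 4633, 4311 and 6633 in IgG mutants, and at 11803, 9989 and 7357 in IgG wild types. It stayed at 0.602 times the wild-type mean without overlap. Atf3 and Socs3 in LC10 mutants were above the IgG wild types without overlap, at 1.31 and 1.36 times their means. On this scale 22.8% of all genes were higher and 21.2% lower in LC10 mutants than in IgG wild types without overlap, so these 4 genes of 10 stand near that background. None of the 10 genes separated LC10 from IgG mutants, with ratios of the means of 1.11 to 1.49, where the groups of 18.4% of all genes did not overlap.

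Other genes of the same programme were counted from lists. Of 19 other immediate early transcription factors tested in the Smad4 cohort, 6 were higher and 1 lower, with a median log2 fold change of 0.08. Klf10, a factor induced by TGF-beta, was at 2834 ± 533 (SD, n = 5) in wild types and 4719 ± 787 in mutants, 0.74 ± 0.14 (SE, limma adjusted p = 0.00324). Maff, a small MAF protein, was at 827 ± 99.7 and 1720.1 ± 617, 0.99 ± 0.21 (adjusted p = 0.00474), and Klf4, a flow-responsive factor, at 0.34 ± 0.07 (0.00417). Under IgG, Klf10 (0.95 ± 0.14) and Klf4 (0.49 ± 0.14) made up the 2 of 19 that were higher, and 0 were lower. In the Alk1 cohort 8 of 19 were higher and 0 lower, among them Fosl2, another AP-1 subunit, at 1556 ± 162 in wild types and 8544 ± 6865 in mutants, 2.15 ± 0.37 (adjusted p = 0.000979). Maff (1.80 ± 0.21) and Egr3 (1.76 ± 0.35) rose there too. In the Eng cohort 2 were higher, Ier5 (0.35 ± 0.08) and Myc (0.41 ± 0.12), and 0 lower.

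The list of feedback inhibitors of signalling and genes of mRNA decay split by cohort. In the Alk1 cohort 18 of 24 were higher and 0 lower (median 0.77), in the Smad4 cohort 9 and 3 (median 0.26), in the Eng cohort 0 and 1 (0.07), and under IgG 2 and 1 (0.02). The MAP kinase phosphatase Dusp5 was at 22.3 ± 9.07 in Alk1 wild types and 204 ± 179 in mutants (2.79 ± 0.46, adjusted p = 0.000719), and Dusp2 at 1019.7 ± 96.5 and 2035 ± 336 (0.99 ± 0.11). Spry1, an inhibitor of receptor tyrosine kinase signalling, was at 1588 ± 237 in Smad4 wild types and 4297 ± 1188 in mutants (1.40 ± 0.17, adjusted p = 0.000173). The kinases and factors upstream of the early genes were higher for 8 and lower for 2 of 19 in Alk1, including Srf, the factor of the CArG box, at 0.55 ± 0.09, and Crem at 0.76 ± 0.13. They were higher for 6 and lower for 1 in Smad4, 0 and 3 in Eng, and 4 and 1 under IgG.

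Genes related to Socs3 and Atf3 were counted in the same way. Of 17 tested genes of the interleukin-6 family and STAT3, 9 were higher and 4 lower in Alk1 (median 0.37), 4 and 6 in Smad4 (-0.33) and 3 and 3 in Eng (-0.10), and of 18 under IgG 1 was higher and 8 lower (-0.22). Lif, a cytokine that signals through Lifr, was at 2.97 ± 1.77 in Alk1 wild types and 74.3 ± 21.5 in mutants (4.00 ± 0.38, limma adjusted p = 1.05e-05). It rose also in Eng (2.65 ± 0.30) and under IgG (2.39 ± 0.37), from wild-type means of 4.43 and 5.40. These wild-type means lay below the minimum of the filter on low values, so Lif entered the tests through mutant libraries alone. Its receptor Lifr fell in Alk1 (-0.80 ± 0.07) and Smad4 (-0.68 ± 0.06), and Osmr fell in Smad4 (-0.60 ± 0.06) and Eng (-0.50 ± 0.06). Under IgG both fell (Osmr -0.77 ± 0.10, Lifr -0.65 ± 0.09). Of 10 genes of the ATF4 stress response, a pathway known to induce Atf3, 8 were higher and 0 lower in Alk1 (median 0.72). The counts were 2 and 1 in Smad4, 3 and 0 in Eng and 1 and 1 under IgG. Trib3 rose from 75.0 ± 10.1 to 371 ± 67.2 in Alk1 (2.27 ± 0.16, adjusted p = 1.18e-06), and Sesn2 rose in Eng (1.54 ± 0.11), in Smad4 (1.29 ± 0.09) and under IgG (1.35 ± 0.16). Heat shock genes, which respond to proteotoxic stress and to dissociation, were higher for 4 of 14 in Smad4, 3 in Alk1, 4 in Eng and 4 under IgG, and lower for 1, Hsf1, in Alk1 alone of the 4 comparisons. Hsp90aa1 was among those higher in each, at 0.55, 0.48, 0.39 and 0.46 in that order. These list counts stand beside the share of all genes called in each comparison, 33% in Smad4, 33.2% in Alk1, 21.5% in Eng and 24% under IgG. They were not tested as sets and not repeated without single libraries.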

How the data were processed

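The 39 libraries used were measured in 5 tables of 24972 genes, 1 per cohort and 1 per antibody. The authors deposited a normalized signal per gene and library, which the labels call raw counts. The genome was mm10, per the submitters' processing notes, and the tools that aligned, counted and normalized were not given in the sources used here. A count test was not used, since the values are not whole numbers. Left out were 26 gene names, date-like or repeated, and 3 columns of LC10 wild types that match no described sample. In the untreated cohorts a column shows its group but not which sample it is.

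Values were used as log2(value + 2). Genes with at least 20 in at least 5 libraries (3 for IgG) entered the test, limma (version 3.58.1, R 4.3.3) with trend, and Benjamini-Hochberg adjustment over all genes tested. A fold change on this scale understates low genes. Each untreated table was fitted alone, and the IgG fit also held the LC10 mutants as a group of their own, which added to the estimate of spread only. The code was tested on simulated data. The labels state 1 µg of RNA per library; depth was inferred from the smallest steps. Positions are from GENCODE M21 and promoters from RefSeq.

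The members and the gene lists were chosen with earlier results of these data known. Named genes are the 10, the targeted genes, up to 3 per list with the smallest adjusted p, and the 6 most alike in deviation. Alternatives were other pseudocounts, no filter, no trend, other scaling, library codes, a joint fit, a replicate block and leaving out each library.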

Additional observations from a re-analysis of the deposited data

Results flagged for a closer look

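In 3 mutant libraries single values stood far from the rest of their group by Dixon's test at 95%. Of 60 groups of 5 values tested, 14 had such a value, where chance alone would give about 3, or 1 in 20, and the genes of a library are not independent.

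In Smad4 mutant library 2, Junb was at 6390.3 (others 11258 to 12808), Ier2 at 3762 (5428 to 6099), Ier3 at 771 (1303 to 1515) and Socs3 at 1212 (2879 to 3177). In Alk1 mutant library 3, Jun was at 25785 (others 8613 to 11752), Atf3 at 9254 (1393 to 1947), Ier2 at 8689 (4483 to 5557), Socs3 at 5870.4 (2112 to 3161) and Nr4a1 at 16138 (1715 to 5498). In Eng mutant library 5, Fos was at 28529 (others 9919 to 14201), Fosb at 11418 (2867 to 4546), Junb at 18192 (9898 to 11764), Ier3 at 2533 (1246 to 1489) and Socs3 at 5886 (2791 to 3686).

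The effect of genotype differed between cohorts in limma's joint fit for Egr1 (-1.58), Atf3 (-1.38), Ier3 (-2.10) and Socs3 (-1.44) in Smad4 minus Alk1, and for Ier3 (1.53) in Alk1 minus Eng. Each of these involves the Alk1 cohort, whose tamoxifen and age also differed, which cannot be told apart from the deleted gene.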

How the results depend on the processing

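Of 1480 values of single genes under alternatives, 1417 stayed on the same side of the threshold, 46 of them with another sign in a gene that was not called, 24 lost a call, 39 gained one and 0 reversed a call. All 279 values of genes called in the reported fits kept their sign. The number of the 10 genes called in Smad4, 4, became 0 with only libraries without a code and 7 with only libraries with a code, the latter chosen after seeing the data. Of all genes, 17.4% and 43% were called in those fits. In Eng, 0 became 1 with the library code as a term and 2 with only code L210, also chosen after seeing the data. There 24.5% and 21.8% of all genes were called. In Alk1 minus Eng, 1 became 2 with quantile normalization. Leaving out each library in turn gave 2 to 5 in Smad4, 2 to 3 in Alk1, 0 to 2 in Eng, 1 to 5 under IgG, 3 to 6 in Smad4 minus Alk1, 0 to 0 in Smad4 minus Eng and 1 to 3 in Alk1 minus Eng. The share of all genes called, which also moves between these fits, is not set beside these ranges. Atf3 in Smad4 minus Alk1 missed the threshold in 9 of 25 alternatives, with an adjusted p of up to 0.0872. The alternatives by code or without a library have fewer libraries, and the cause of the other changes was not tested.

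Only the antibody tables carry replicate numbers from the labels. With the replicate block, 1 gene was called under IgG, Egr1 (adjusted p = 0.0209). The numbers did not pair the libraries: deviations of same-numbered libraries correlated at 0.043, 0.016 and -0.067. For the untreated cohorts no paired analysis was possible because the columns carry no label numbers. The lowest value of the 10 genes in any library was 622, and whether depth limits them was not tested.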
